A study of Danio rerio with 3 samples.

Results

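The 42 genes described here encode factors that build ribosomes, and their transcripts made up a smaller share of the transcriptome at each later stage of the zebrafish hindbrain. They were chosen by name, as known factors of ribosome biogenesis, and the decline with stage was known when they were chosen. All 42 of 42 were found among the 27282 genes of the count tables (*nop14* is listed there in capitals, as *NOP14*). Of these, 3 encode box C/D small nucleolar ribonucleoproteins (snoRNPs), 4 box H/ACA snoRNPs, 4 nucleolar chaperones and GTPases, 16 components of the small subunit processome, 2 factors of later 40S assembly and export, and 13 factors of 60S assembly.

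Ribosomes are assembled in the nucleolus, where RNA polymerase I transcribes a long precursor RNA that is modified, cut and folded while ribosomal proteins join it. Box C/D snoRNPs methylate the precursor and box H/ACA snoRNPs convert selected uridines to pseudouridine. The small subunit processome then holds and cuts the part that becomes the 40S subunit, and a separate set of factors assembles the 60S subunit. The pathway is known for its high activity in growing and dividing cells, and most of the roles named below were worked out in yeast and in mammalian cells.

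The libraries came from wild-type embryos of the LondonAB strain at 16, 24 and 44 h post-fertilisation (hpf), 1 library for each stage. Hindbrains were dissected with the tissue around them, about 40 were pooled for each library, and single-cell transcriptomes were made with droplet-based 3′ chemistry, in which each captured RNA molecule carries a unique molecular identifier (UMI). Embryos were grown at 25 °C for the 16 and 44 hpf libraries and at 28.5 °C for the 24 hpf library. The libraries were sequenced on different runs, as a deposited file of library paths shows. Since each stage is 1 library, stage cannot be told apart from library and sequencing run, nor from growth temperature where 24 hpf is compared with the other stages. No test between stages was made, and every interval given covers counting error only.

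In all, 8159 of 9026 cells were kept. The median depth differed between libraries, at 9940, 7852 and 2605 UMIs per cell at 16, 24 and 44 hpf, and 37 cell barcodes occurred in more than 1 library. Levels are therefore given as the summed UMIs of a class scaled to a total of 1000000 (CPM). UMIs were read from the 3′ ends of transcripts, and differences in CPM between genes are differences in UMIs captured. Cells were assigned to classes from 2000 UMIs drawn at random from each cell. Only the 44 hpf library had neural cells too shallow for this draw (600 of 2537), and these were left out. Progenitors were cells of neural clusters with at least 1 drawn UMI of the progenitor gene *sox3* and none of the neuronal gene *elavl3* (1382, 916 and 529 cells), and neurons were those with at least 2 of *elavl3* (58, 301 and 971 cells). On all UMIs, *elavl3* stood at 31.4, 85.4 and 78.1 CPM in progenitors and at 1670, 1865 and 1845 CPM in neurons. This gap follows from the gates, which use *elavl3* itself, and is no check of them. The 58 neurons at 16 hpf still held *sox3*, at 2591 CPM against 1817 CPM in progenitors of that stage. Different clusters supplied most progenitors at each stage, led by *her3*, *fuom* and *lim2.1* at 16 hpf, by *casz1* and *sp8a* at 24 hpf, and by *si:ch211-251b21.1* and *BX465834.1* at 44 hpf.

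In progenitors, the 42 genes together stood at 8852 CPM at 16 hpf (95% Poisson interval 8803 to 8902), 3299 CPM at 24 hpf (3258 to 3339) and 1516 CPM at 44 hpf (1458 to 1575). Each later stage was below the one before it, and the intervals did not overlap. The level at 44 hpf was 5.84-fold lower than at 16 hpf (5.62 to 6.07), with a 2.68-fold difference between 16 and 24 hpf and a 2.18-fold difference between 24 and 44 hpf. As a share of all UMIs, the genes took up 0.885% at 16 hpf and 0.152% at 44 hpf. The median gene also had a lower CPM at 44 hpf than at 16 hpf, by 0.27 on the log2 scale, and relative to that median the ratio of the sum was 0.207.

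**Figure D1:**
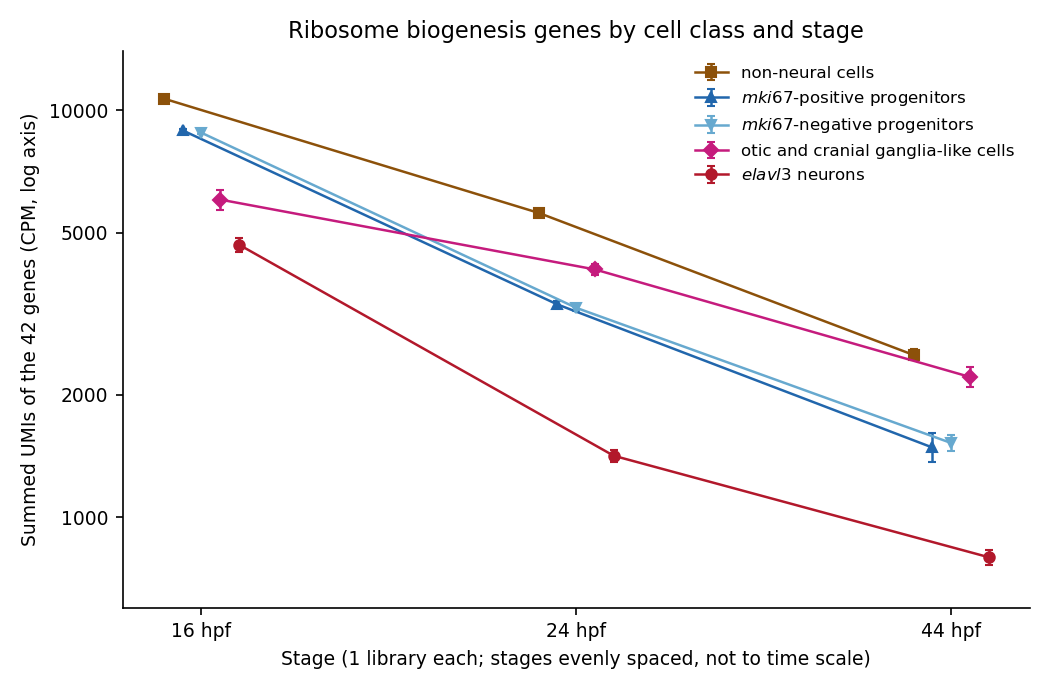
Summed CPM of the 42 ribosome biogenesis genes (log axis) at each stage in 5 classes of cells, with exact 95% Poisson intervals (counting error only). Every class is lower at each later stage, and the *mki67*-positive and *mki67*-negative progenitors lie together at 8924 and 8807 CPM at 16 hpf and at 1486 and 1524 CPM at 44 hpf.

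Single cells showed the same order of stages at equal depth. Among 2000 UMIs drawn from each progenitor, the median cell held 17 UMIs of the 42 genes at 16 hpf, 6 at 24 hpf and 2 at 44 hpf. None of the 529 progenitors at 44 hpf reached the median of the 16 hpf cells, and 2.84% of the 916 progenitors at 24 hpf did. With 529 cells of 1 library, a share of up to 0.567% could be missed, a limit that covers the sampling of cells only. The 24 and 44 hpf cells overlapped more, with 12.5% of the 44 hpf progenitors at or above the 24 hpf median. Cells without a single UMI of the 42 genes in the draw made up 0.0724% of progenitors at 16 hpf, 2.07% at 24 hpf and 9.83% at 44 hpf. Clusters made up mostly of progenitors stood at 8382 to 9602 CPM at 16 hpf, 3330 to 3437 CPM at 24 hpf and 1340 to 1439 CPM at 44 hpf.

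**Figure D2:**
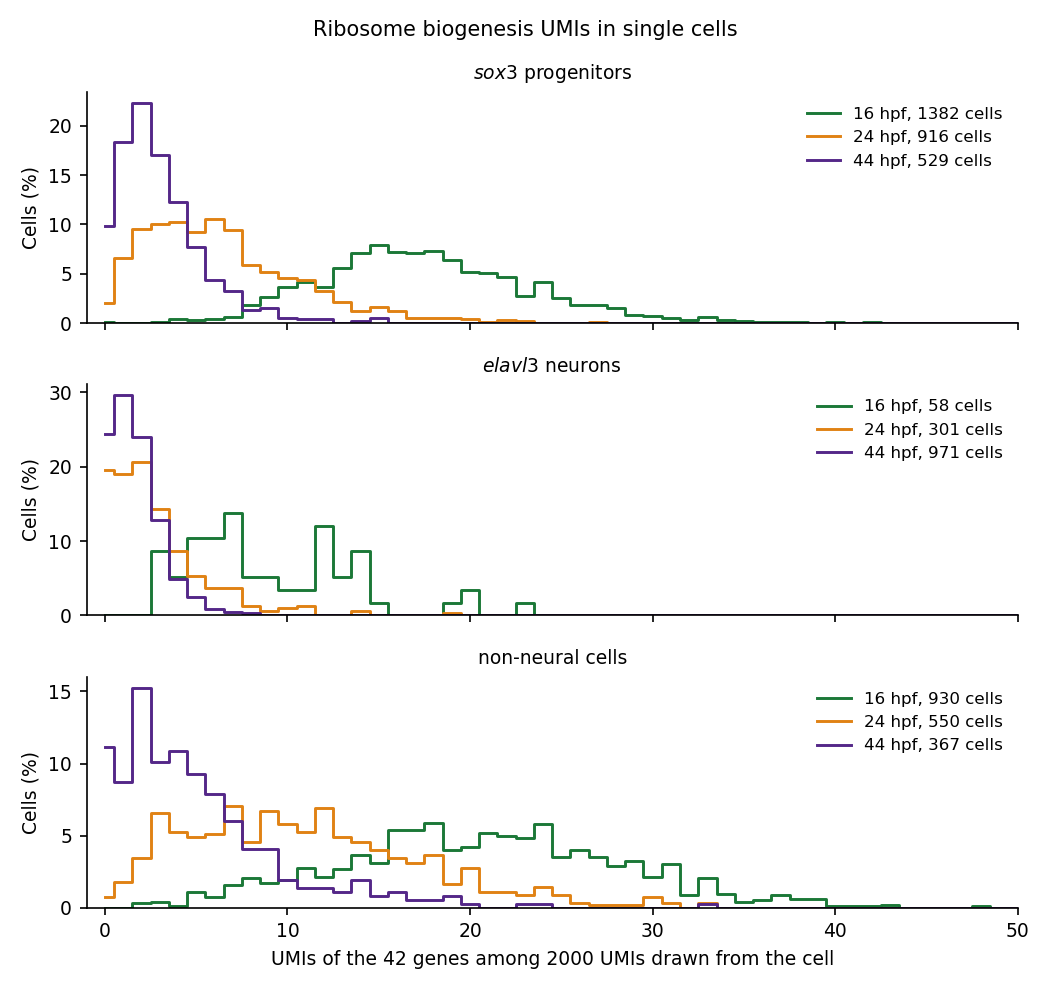
Percentage of cells (y axis) by the number of UMIs of the 42 genes among 2000 UMIs drawn from the cell (x axis), for progenitors, neurons and non-neural cells at each stage. The progenitor distributions move from a median of 17 UMIs at 16 hpf to 6 at 24 hpf and 2 at 44 hpf, at equal depth.

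The box C/D snoRNP genes were lower at each later stage, by unequal amounts. *fbl*, which encodes the methyltransferase of the particle, stood at 525 CPM at 16 hpf, 212 at 24 hpf and 68.9 at 44 hpf, a 7.62-fold difference between the first and last stage (6.36 to 9.20). *nop58*, a core scaffold protein of the same particle, gave 600.4, 248 and 99.9 CPM. Its partner *nop56* kept more of its level, at 590, 369 and 187 CPM, a 3.15-fold difference (2.82 to 3.53) whose interval lay below that of *fbl*. These 3 genes thus had the same order of stages but not the same size of difference.

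The box H/ACA snoRNP genes had the lowest share left at 44 hpf of the groups with at least 3 genes, 0.141 of the 16 hpf level (0.128 to 0.155). The nucleolar chaperones and GTPases were next at 0.159 (0.148 to 0.170), an interval that overlaps it, and box C/D stood at 0.208 (0.191 to 0.225). *dkc1* encodes dyskerin, the pseudouridine synthase, and stood at 405, 122 and 33.3 CPM at 16, 24 and 44 hpf, a 12.2-fold difference between the first and last. *nhp2*, a core protein of the particle, gave 500.5, 195 and 41.9 CPM, 11.9-fold. *gar1* followed another course, at 214, 142 and 32.7 CPM: its level at 24 hpf was 0.666 of that at 16 hpf, and it was then 4.35-fold lower at 44 hpf than at 24 hpf. *nop10*, the smallest protein of the particle, kept the most, at 616, 219 and 137 CPM.

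The nucleolar chaperones held the 2 genes with the most UMIs in progenitors, and they parted after 24 hpf. *npm1a* encodes nucleophosmin, an abundant protein of the outer nucleolus, and stood at 1514, 465 and 101 CPM at 16, 24 and 44 hpf. *ncl* encodes nucleolin, which binds the precursor RNA and nucleolar chromatin, and stood at 1224, 435 and 334 CPM. Between 16 and 24 hpf the genes differed by like amounts, 3.25-fold for *npm1a* and 2.81-fold for *ncl*. Between 24 and 44 hpf *npm1a* was lower by a further 4.61-fold (3.96 to 5.39) and *ncl* was at 0.768 of its 24 hpf level (0.702 to 0.839). As a result *npm1a* supplied 17.1% of the UMIs of the 42 genes in progenitors at 16 hpf and 6.67% at 44 hpf, while *ncl* supplied 13.8% and 22.0%. The nucleolar GTPase genes gave fewer UMIs: *gnl3*, which encodes nucleostemin, gave 138, 28.6 and 16.6 CPM, and *gnl2* gave 37.4, 12.9 and 10.3 CPM, the last from 18 UMIs.

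The 16 genes of the small subunit processome summed to 908 CPM at 16 hpf, 307 at 24 hpf and 169 at 44 hpf, a 5.38-fold difference between the first and last stage (4.79 to 6.06). *rbm19*, an RNA-binding factor needed in zebrafish for growth of the gut, gave 147, 32.8 and 11.5 CPM, one of the larger differences at 12.8-fold (8.24 to 20.9). *wdr43*, a WD-repeat protein that binds the start of the precursor with other Utp proteins, gave 120, 55.3 and 33.3 CPM. *bms1*, the GTPase of the processome, gave 111, 43.0 and 13.2 CPM. The members that kept the most of all 42 were also here: *nol11* stood at 45.2, 19.9 and 18.4 CPM and *utp15* at 23.5, 11.1 and 9.19 CPM, with ratios of 0.406 (0.275 to 0.580) and 0.391 (0.221 to 0.645) between 44 and 16 hpf. Other processome genes kept less, with ratios of 0.116 (0.0463 to 0.240) for *wdr75* and 0.103 (0.0279 to 0.267) for *heatr1*. These rested on 7 and 4 UMIs at 44 hpf. *nol10*, an early processome protein, was the 1 member that passed the minimum and was not lower at 44 hpf than at 24 hpf, with 53.5, 12.4 and 14.9 CPM and a ratio of 1.203 (0.748 to 1.87), an interval that holds 1. *mphosph10* and *utp18* of the same machine lay between these, with 69.3, 23.4 and 18.4 CPM and 50.9, 25.7 and 16.6 CPM. Counts were low for several others at 44 hpf. *rcl1* had 5 UMIs there and *imp4* 4, against 688 and 506 at 16 hpf. *NOP14* had 41, 8 and 0 UMIs and was not detectable at 44 hpf at this depth, where 3 UMIs would be 1.72 CPM.

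Of the factors of later 40S assembly and export, *rrp12* gave 39.5, 17.1 and 5.17 CPM and *tsr1* 38.9, 13.4 and 4.02 CPM, the last values from 9 and 7 UMIs. The 13 genes of 60S assembly summed to 1502, 513 and 275 CPM, a 5.46-fold difference between 16 and 44 hpf (4.99 to 5.99). *ebna1bp2*, an early 60S factor, gave 152, 84.0 and 41.3 CPM. *nop2*, a methyltransferase of the large subunit RNA, gave 151, 43.0 and 12.6 CPM and differed 12.0-fold. *ddx27*, an RNA helicase, differed most in this group at 13.9-fold (8.25 to 25.5), with 112, 35.3 and 8.04 CPM. Another helicase gene, *ddx18*, differed least at 2.93-fold (2.36 to 3.69), with 143, 58.7 and 48.8 CPM. *rrp1* gave 149, 53.0 and 27.6 CPM, and *mrto4*, a nuclear protein related to a stalk protein of the ribosome, gave 138, 30.4 and 18.4 CPM. *rpf2*, which with *rrs1* brings the 5S ribonucleoprotein to the 60S precursor, had its difference between 16 and 24 hpf and little after, with 108, 32.2 and 29.3 CPM. The genes of the PeBoW complex, which is needed for maturation of the large subunit RNA, were alike, at 7.43-fold for *pes*, 9.61-fold for *bop1* and 8.66-fold for *wdr12*.

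**Figure D3:**
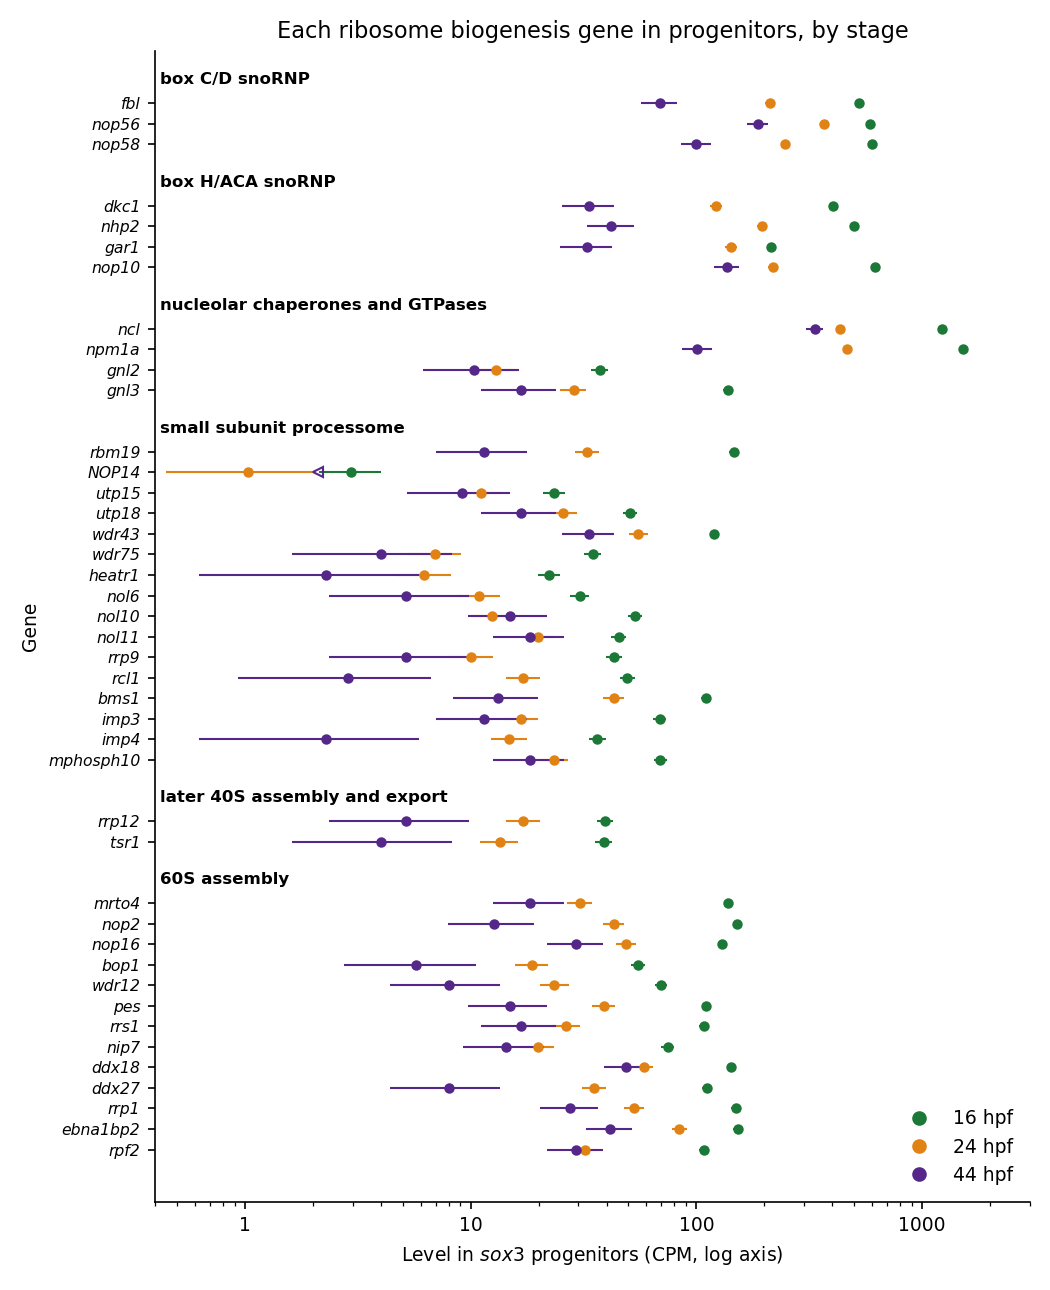
CPM of each of the 42 genes in progenitors (log axis) at 16, 24 and 44 hpf, grouped by role, with exact 95% Poisson intervals; the open arrowhead marks the upper bound for *NOP14* at 44 hpf, where it had 0 UMIs. All 42 genes are lower at 44 than at 16 hpf, from 2.46-fold for *nol11* to 15.0-fold for *npm1a* among genes with at least 10 UMIs in both.

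A minimum mean of 10 CPM over the 2 stages compared was passed by 41 of the 42 genes in progenitors for 44 against 16 hpf, and all 41 were at least 2-fold lower at 44 hpf, where 25.3% of the 5500 genes tested were. Of these 41, 12 passed only through their level at 16 hpf. For 24 against 16 hpf, 37 of 41 were at least 2-fold lower (9.97% of all genes), and for 44 against 24 hpf 15 of 34 were (12.2% of all genes), with 2 and 5 of these members under the minimum at the later stage. The median ratio of the members that passed was 0.346 between 24 and 16 hpf, where the median of all genes was 0.902, and 0.551 between 44 and 24 hpf, where it was 0.915. Among the 33 members with at least 10 UMIs at every stage, 22 differed more between 16 and 24 hpf than between 24 and 44 hpf. The 11 others included *fbl*, *nop58*, *dkc1*, *nhp2*, *gar1* and *npm1a*. The share of all genes with the larger difference in the first interval is not given here, so this count describes the members alone.

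Other genes of ribosome production gave a graded picture in progenitors. Of other small subunit factors, 35 of the 39 that passed the minimum were at least 2-fold lower at 44 than at 16 hpf, with a median ratio of 0.288. Of other large subunit factors 35 of 41 were, with a median of 0.226. Their sum differed less than that median, at 3407 CPM at 16 hpf and 1575 CPM at 44 hpf, a ratio of 0.462. The sum of the other small subunit factors had a ratio of 0.304. In this comparison 25.3% of all genes were at least 2-fold lower. The most abundant of the other snoRNP genes was *snu13b*, a protein shared by box C/D particles and the spliceosome, with 800.2, 296 and 132 CPM. The large subunit factors held the extremes: *surf6* stood at 207, 50.5 and 7.46 CPM, whereas *rsl24d1* stood at 352, 370.1 and 431 CPM and *nsa2* at 293, 226 and 347 CPM. Both of these genes, which act in assembly of the 60S subunit, were thus slightly higher at 44 than at 16 hpf, with ratios of 1.22 (1.13 to 1.32) and 1.18 (1.09 to 1.29). For RNA polymerase I, 4 of 6 genes were at least 2-fold lower (median 0.256), with *polr1d*, a subunit shared with RNA polymerase III, at 95.9, 37.5 and 17.8 CPM and the factor gene *ubtf*, which opens ribosomal DNA for transcription, at 77.8, 97.6 and 57.4 CPM. For the exosome, which trims the precursor and degrades its by-products, 6 of 11 genes were (median 0.476).

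The ribosomal proteins themselves differed far less. Of 72 cytosolic ribosomal protein genes in progenitors, 2 were at least 2-fold lower at 44 than at 16 hpf and none was higher by as much, with a median ratio of 0.880, and their sum was 267289 CPM at 16 hpf, 265275 at 24 hpf and 229596 at 44 hpf. Of 32 translation factor genes, 6 were at least 2-fold lower and 2 higher, with a median of 0.746. Mitochondrial ribosomal protein genes had 22 of 70 lower and a median of 0.630. Of all genes 25.3% were at least 2-fold lower in this comparison. The translation factor count lay below that share and the mitochondrial one a little above it. In these cells the transcripts for building ribosomes and those for their protein parts therefore stood in different ratios at the 3 stages.

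Genes of the cell cycle had another order in time. The 33 genes of DNA replication had a median ratio of 0.837 in progenitors between 24 and 16 hpf, with 0 of 33 at least 2-fold lower. Between 44 and 24 hpf their median ratio was 0.229, with 32 of 32 lower. Of all genes, 9.97% and 12.2% were at least 2-fold lower in these 2 intervals. *pcna*, the sliding clamp of the replication fork, stood at 1656, 1439 and 161 CPM at 16, 24 and 44 hpf. Mitotic genes had medians of 0.945 and 0.820 in the 2 intervals. In progenitors the ribosome biogenesis genes thus had their larger median difference in the interval in which the replication genes had the smaller. The sums in neurons had the same order. Their ratios were 0.303 and 0.564 for the ribosome biogenesis genes and 0.686 and 0.386 for the replication genes. Non-neural cells did not share this order, since the sums of both lists differed more between 24 and 44 hpf. The ratios there were 0.524 and 0.448 for the ribosome biogenesis genes and 0.883 and 0.533 for the replication genes.

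**Figure D4:**
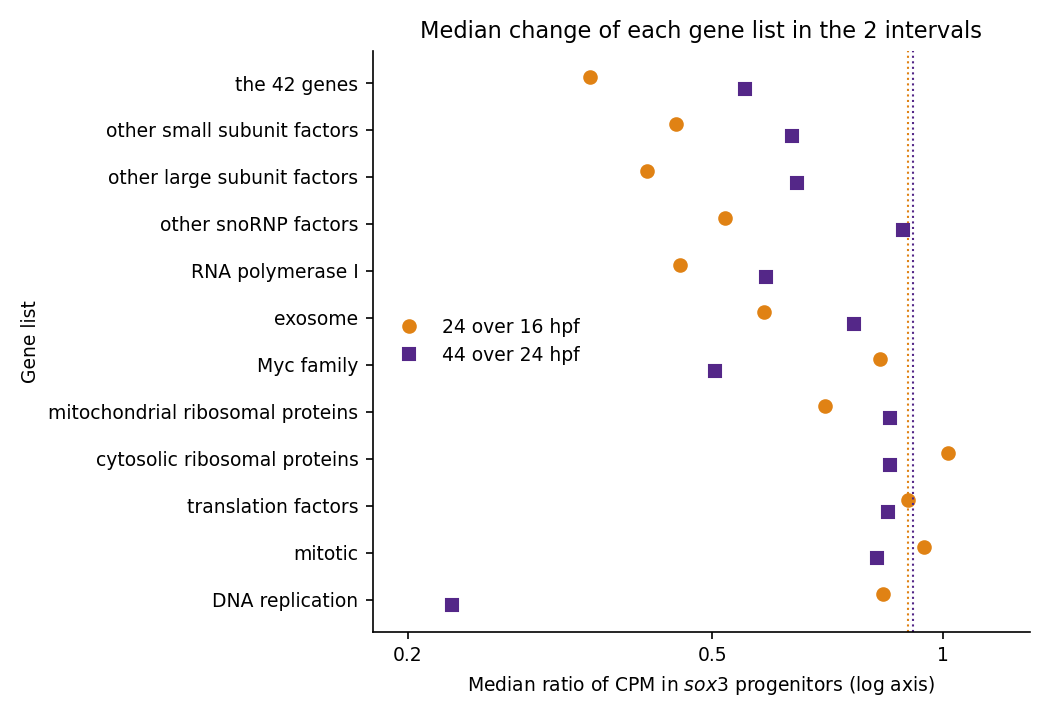
Median ratio of CPM in progenitors (log axis) for each gene list, for 24 over 16 hpf (circles) and 44 over 24 hpf (squares); dotted lines mark the medians of all genes tested, 0.902 and 0.915. The 42 genes lie at 0.346 and 0.551, the DNA replication genes at 0.837 and 0.229.

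Members of the Myc family are known in mammals as activators of ribosome biogenesis genes. *mycn* was the most abundant of the family in progenitors and stood at 572, 419 and 235 CPM at 16, 24 and 44 hpf. *mych* gave 144, 92.7 and 14.4 CPM and *myclb* 187, 202 and 42.5 CPM. *myca* was highest at 24 hpf, with 25.9, 54.2 and 10.9 CPM. *mycla*, with 128, 87.4 and 155 CPM, and *mycb*, with 35.0, 32.3 and 43.1 CPM, were highest at 44 hpf. *max*, the shared partner of Myc proteins, gave 213, 142 and 151 CPM. Of the 8 family genes that passed the minimum, 4 were at least 2-fold lower at 44 than at 16 hpf, where 25.3% of all genes were.

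Neurons held fewer transcripts of the 42 genes than progenitors of the same library. Their sum stood at 4678 CPM at 16 hpf (4497 to 4865), 1418 at 24 hpf (1369 to 1468) and 799 at 44 hpf (766 to 833). The ratio of neurons to progenitors was 0.529 at 16 hpf (0.508 to 0.550), 0.430 at 24 hpf (0.414 to 0.446) and 0.527 at 44 hpf (0.498 to 0.558), so neurons were lower at every stage. The 16 hpf ratio rested on 58 cells and moved to 0.830 when cells were called on all their UMIs. The median neuron held 8, 2 and 1 UMIs of the 42 genes among 2000 drawn, and neurons without any made up 0% at 16 hpf, 19.6% at 24 hpf and 24.4% at 44 hpf. Cells of neural clusters with 1 drawn UMI of *elavl3* lay between, at 8145, 2792 and 1013 CPM. Within neurons the sum was 5.85-fold lower at 44 than at 16 hpf (5.53 to 6.20), against 5.84-fold in progenitors. The ratio of 0.171 in neurons moved to 0.111 when cells were called on all their UMIs. At least 2-fold lower levels at the later stage were found in neurons for 32 of 36 members between 16 and 24 hpf, 9 of 24 between 24 and 44 hpf and 34 of 34 between 16 and 44 hpf, where 15.0%, 15.3% and 29.7% of all genes were. Of these members, 11, 5 and 15 passed the minimum only through the earlier stage, where they were higher. The epidermal gene *krt4*, a measure of free RNA in the droplets, stood at 80.0, 152 and 72.7 CPM in neurons against 1317, 3750 and 967 CPM in non-neural cells, and the part of free RNA in the neuronal values was not tested.

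The members differed in how far neurons lay below progenitors. At least 2-fold lower levels in neurons were found for 20 of 41 members at 16 hpf, 23 of 33 at 24 hpf and 15 of 25 at 44 hpf, where 13.1%, 14.4% and 16.6% of all genes were, and 2, 8 and 6 of these members passed only through progenitors. *nop58* was low in neurons at every stage, with ratios of 0.372, 0.307 and 0.324. *dkc1* stood lower still, with ratios of 0.317, 0.297 and 0.238, the last from 22 UMIs in neurons. *npm1a* lay closer to progenitors: neurons stood at 1156, 332 and 116 CPM and progenitors at 1514, 465 and 101 CPM, ratios of 0.764, 0.713 and 1.15. The last of these had an interval of 0.955 to 1.39, so that *npm1a* in neurons was not below progenitors at 44 hpf beyond counting error. *rrs1*, the partner of *rpf2*, was the only other member past the minimum with a ratio above 1 at 44 hpf, 1.297 (0.820 to 2.10).

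Between 24 and 44 hpf, *ncl* was higher in neurons and lower in the other classes. In neurons *ncl* stood at 493, 152 and 195 CPM at 16, 24 and 44 hpf, and the 44 hpf level was 1.28 times the 24 hpf level (1.12 to 1.477). In progenitors that ratio was 0.768 (0.702 to 0.839) and in non-neural cells 0.714, and the difference between classes was not tested. The direction in neurons turned, to 0.8, when cells were called on all their UMIs. By contrast *nhp2* in neurons gave 261, 84.8 and 14.0 CPM and *fbl* gave 303, 68.4 and 24.1 CPM, both lower at each stage.

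Dividing and other progenitors were compared through *mki67*, which marks cells in cycle. Of the progenitors, 36.3% at 16 hpf, 37.9% at 24 hpf and 19.5% at 44 hpf had at least 1 drawn UMI of *mki67*. The summed mitotic genes were 1.39-, 2.35- and 6.19-fold higher in these cells than in the others. The replication genes were not higher in them at the first 2 stages, with ratios of 0.911 and 0.835, so cells without *mki67* also held replication transcripts there.

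The 42 genes barely differed between these progenitors. *mki67*-positive cells stood at 8924, 3335 and 1486 CPM at 16, 24 and 44 hpf and *mki67*-negative cells at 8807, 3273 and 1524 CPM. The ratios were 1.01 at 16 hpf (1.00 to 1.03), 1.02 at 24 hpf (0.994 to 1.04) and 0.975 at 44 hpf (0.887 to 1.07), and the first of these turned to 0.986 and 0.981 under scaling by the median ratio of all genes and with cells called on all UMIs. The 24 hpf ratio also went below 1 under 4 alternatives, to between 0.944 and 0.985. Both groups were lower at 44 than at 16 hpf by like amounts, 6.01-fold (5.53 to 6.54) and 5.78-fold (5.53 to 6.04). Of the members that passed the minimum, 40 of 41 and 41 of 41 were at least 2-fold lower, where 23.6% and 27.4% of all genes were, and 14 and 12 of these members passed only through their 16 hpf level. No member that passed the minimum differed 2-fold between the 2 groups at 16 or 24 hpf. Of all genes, 0.0178% and 0.188% were at least 2-fold lower in *mki67*-positive cells and 0.0712% and 1.52% at least 2-fold higher. At 44 hpf, with 103 *mki67*-positive cells, 4 of 28 members were at least 2-fold lower and 1 higher, where 5.61% and 10.9% of all genes were. The lower ones were *gnl3*, *mphosph10*, *nip7* and *rpf2*, of which the first 3 had 2 or 3 UMIs in *mki67*-positive cells and passed only through the *mki67*-negative level. The higher one was *imp3*, which passed only through the *mki67*-positive level, and all 5 were named after their values were seen.

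*dkc1* was higher in *mki67*-positive than in *mki67*-negative cells, at 437 and 385 CPM at 16 hpf and 148 and 103 CPM at 24 hpf. At 44 hpf *dkc1* stood at 49.5 and 28.7 CPM. Its ratios were 1.13 (1.075 to 1.196), 1.43 (1.26 to 1.63) and 1.72 (0.941 to 3.06), the last from 19 UMIs in *mki67*-positive cells. *nop58* was also higher in them at 16 and 24 hpf, by 1.05- and 1.18-fold. *npm1a* leaned the other way at 24 hpf, with a ratio of 0.873 (0.816 to 0.934). The other box H/ACA genes did not follow *dkc1*. *nop10* was lower in *mki67*-positive cells at 16 and 24 hpf, with ratios of 0.919 (0.879 to 0.961) and 0.883 (0.799 to 0.974). *gar1* was lower in them at 16 hpf, at 0.873 (0.809 to 0.942). *nhp2* had ratios of 1.01 and 1.02 at 16 and 24 hpf. Over all 42 genes the interval left out 1 for 9 at 16 hpf (6 above and 3 below) and for 8 at 24 hpf (6 above and 2 below), without adjustment for the number of genes. The share of all genes in the count tables whose interval left out 1 is not given here, so these counts describe the members alone.

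The lower levels at later stages were not confined to neural cells. In the 930, 550 and 408 non-neural cells, which comprised head mesenchyme or mesendoderm-, epidermis-, neural crest-, pharyngeal arch-, otic vesicle-, blood- and vasculature-like clusters, the sum stood at 10680, 5597 and 2507 CPM at 16, 24 and 44 hpf. The 44 hpf level was 4.26-fold lower than that at 16 hpf (4.13 to 4.40), a smaller difference than the 5.84-fold in progenitors (5.62 to 6.07). All 41 members that passed the minimum were at least 2-fold lower, 6 of them through the 16 hpf level alone, where 32.4% of all genes were. Between 16 and 24 hpf 25 of 41 were (10.0% of all genes) and between 24 and 44 hpf 26 of 39 (16.4%), with 4 of the 39 under the minimum at 44 hpf. The median non-neural cell held 21, 10 and 4 UMIs of the 42 genes among 2000 drawn. At 44 hpf this median covered the 367 cells deep enough for the draw, whereas the sum covered all 408. The makeup of this class differed between stages, since 332 of the 408 cells at 44 hpf came from 1 mesenchymal cluster, led by *fmoda* and *col9a1a*, that held no cell at 16 hpf, and 353 of the 930 at 16 hpf were neural crest-like.

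Clusters with cells at more than 1 stage showed the same order of stages. The head mesenchyme or mesendoderm markers picked out different clusters at 16 and 44 hpf, which are given separately. In the cluster led by *tmem88a*, *tnni1b* and *nkx2.5*, genes known from the heart field, the sum was 9343 CPM at 16 hpf (324 cells) and 5514 CPM at 24 hpf (82 cells). In the cluster led by *fmoda* and *col9a1a*, genes of the matrix of connective tissue and cartilage, it was 4681 CPM at 24 hpf (126 cells) and 2555 CPM at 44 hpf (332 cells). Epidermis-like cells stood at 8348 CPM at 16 hpf and 4891 CPM at 24 hpf. A cluster led by *nkx2.9*, *nkx2.2b*, *nkx2.2a* and *phox2bb*, genes of the ventral hindbrain, was kept apart from the other neural cells because it held floor plate markers. It was below progenitors at 16 and 24 hpf, at 6630 CPM (106 cells) and 1747 CPM (105 cells). Otic and cranial ganglia-like cells, which were also kept apart, stood at 6035 CPM at 16 hpf (24 cells), 4065 at 24 hpf (116 cells) and 2214 at 44 hpf (140 cells). They stood at 1.29 times the hindbrain neurons at 16 hpf, 2.87 times at 24 hpf and 2.77 times at 44 hpf. The ganglia-like cells were a whole cluster without the *elavl3* gate of the hindbrain neurons, so the sets compared were chosen differently.

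Neural crest-like cells at 16 hpf held the highest level of all classes with at least 50 cells, 13143 CPM (13030 to 13257), 1.485 times that of progenitors (1.470 to 1.5001). The median of all genes was itself above progenitors in this comparison, by 0.0957 on the log2 scale. All 41 members past the minimum were above progenitors there, from 1.21 to 2.01 times, and 1 of them at least 2-fold (6.39% of all genes). *rpf2* had that largest ratio, at 216 CPM in the crest-like cells and 108 CPM in progenitors. The 2-fold count of 1 of 41 lay below the share over all genes. The share of all genes above progenitors is not given here, so the count of 41 describes the members alone. At 24 hpf a pharyngeal arch-like cluster of 115 cells, led by *grem2b* and *barx1*, stood highest among clusters at 8232 CPM.

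**Figure D5:**
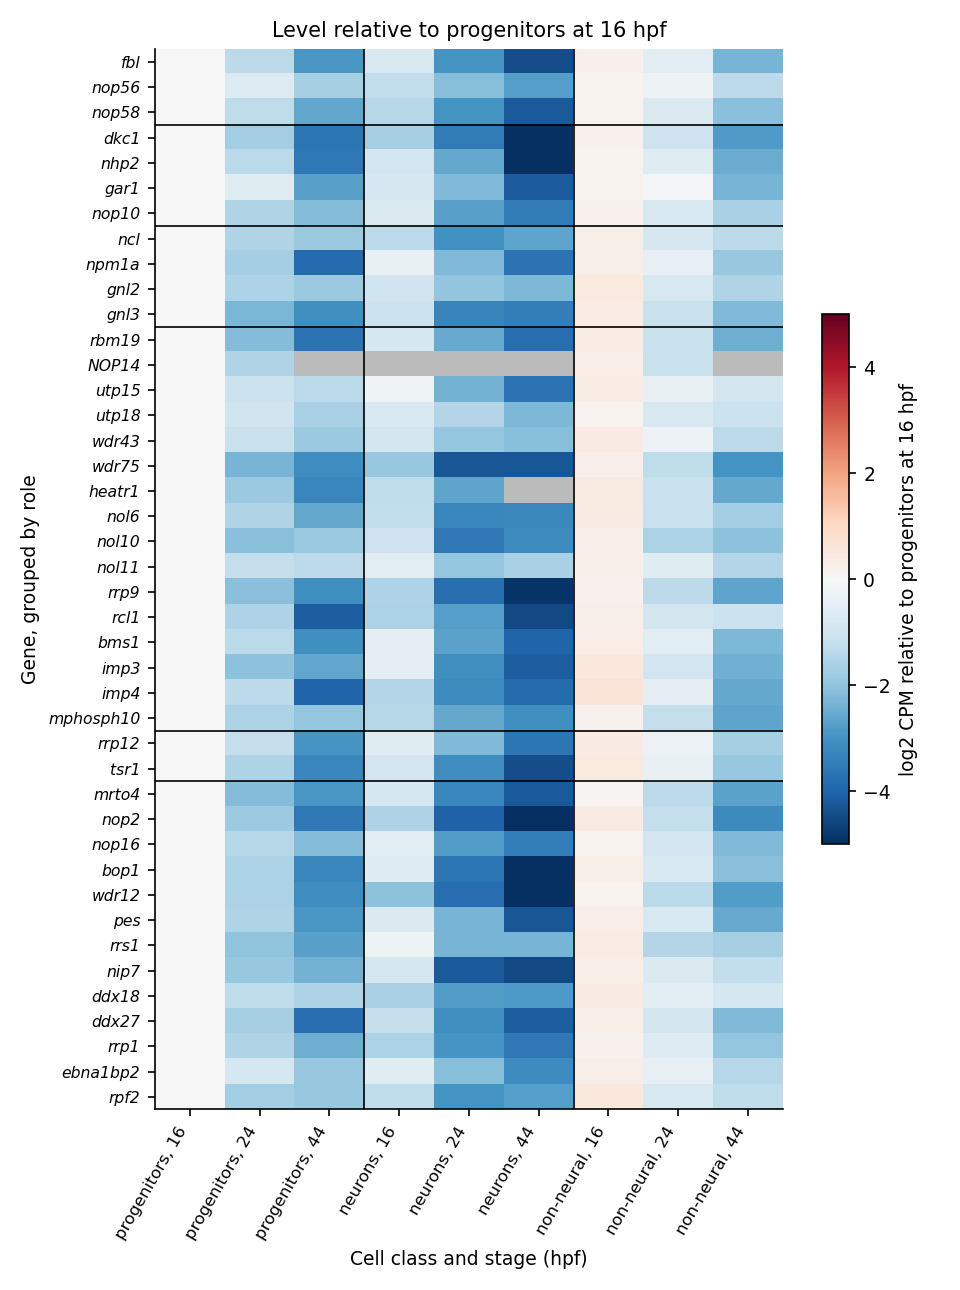
log2 CPM of each gene relative to progenitors at 16 hpf, for progenitors, neurons and non-neural cells at each stage, with genes grouped by role and grey cells where a class held under 3 UMIs. Blue deepens from 16 to 44 hpf in each class, and *npm1a* is 4.04 times as high in non-neural cells as in progenitors at 44 hpf.

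Non-neural cells as a pool lay above progenitors at every stage, by 1.21-fold at 16 hpf, 1.70-fold at 24 hpf and 1.65-fold at 44 hpf. At 16 hpf this was not shared by all classes. Neural crest-like cells stood at 1.485 times progenitors, head mesenchyme or mesendoderm-like cells at 1.06 and epidermis-like cells at 0.943 (0.927 to 0.959). At 24 hpf cells of these class names stood at 1.46, 1.52 and 1.48 times progenitors, but partly from other clusters. The crest-like value rested on 32 cells of a cluster led by *wu:fc46h12*, *gch2* and *pmela*, not the *foxd3* cluster of 16 hpf. The head mesenchyme or mesendoderm-like cells included a cluster with no cell at 16 hpf. The 24 hpf pool also held the pharyngeal arch-like cluster, which had no cell at 16 hpf either and stood at 8232 CPM. Its 115 of the 550 cells gave 11192 of the 32659 UMIs of the 42 genes in the pool. Levels at least 2-fold higher were found for 0 of 41, 7 of 40 and 7 of 32 members, where 11.2%, 15.0% and 16.9% of all genes were, and 0, 1 and 3 of these members passed only through non-neural cells. *npm1a* had the largest difference in CPM at every stage: non-neural cells stood at 1842, 1124 and 408 CPM for this gene, 1.22, 2.42 and 4.04 times the progenitors of the same stage. It supplied 16.3% of the UMIs of the 42 genes in non-neural cells at 44 hpf, against 6.67% in progenitors. *rcl1* differed more in ratio at 44 hpf, 8.25-fold (3.24 to 26.8), from 38 UMIs in non-neural cells and 5 in progenitors. *mphosph10* was lower in non-neural cells than in progenitors at 44 hpf, at 11.2 and 18.4 CPM, with an interval of the ratio (0.323 to 1.12) that holds 1.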

How the data were processed

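The deposited count tables held, for each library, the UMI counts of 27282 genes in each cell barcode. The authors made them with Cell Ranger (version not given in the sources used here) against GRCz10 with Ensembl 89 gene models, without normalisation. A deposited list of libraries held no measurement and was read only for its sequencing runs.

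Cells within 3 median absolute deviations of their library for UMIs, genes and mitochondrial share were kept (8159 of 9026). Cells were clustered with Seurat 5.3.0 on 1967 variable genes that excluded every listed gene, with 30 principal components and a resolution of 0.8, giving 27 clusters, which were named from marker lists. The scoring thresholds for names were set after the clusters were seen. Scrublet called 24 cells (0.294%) and was taken not to have worked, so no doublets were removed. CPM were summed UMIs over the total of the class, with exact Poisson intervals and exact conditional intervals for ratios (95%, SciPy 1.17.1). The ratio intervals were run on simulated Poisson counts, which follow the model they assume. Those counts held no variation between cells or libraries, so the run checked the calculation only. UMIs count molecules, and intervals cover counting error only. A gene was called at a 2-fold difference and a mean CPM of at least 10. No model was fitted, since each stage was 1 library.

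The members and lists were chosen with earlier results of these data known. Every member could be named. In full were given up to 3 members of each role with the most UMIs, the 3 largest and smallest ratios and members that went the other way, and of other lists up to 3 genes with the most UMIs. Alternatives covered scaling, gates, depth, doublets and thresholds. Counting ganglia-like cells as non-neural, and head mesenchyme-like cells alone, were added after seeing the data. The list genes *brix1*, *tcof1*, *taf1c*, *mnta*, *mga*, *incenp* and *eef1a1l1* were not analysed here, and no sequences were used. Depth per library was 28566809, 25733058 and 12351301 UMIs at 16, 24 and 44 hpf.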

Additional observations from a re-analysis of the deposited data

Results flagged for a closer look

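*ncl*, which encodes nucleolin, went in opposite directions between 24 and 44 hpf in 2 classes of cells. The ratio of 44 to 24 hpf was 1.285 in neurons, 0.7682 in progenitors and 0.7141 in non-neural cells. The difference between the classes was not tested, since each stage was 1 library. With cells called on all their UMIs the ratio in neurons was 0.8, and under the other settings tried it was 1.257 to 1.6.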

How the results depend on the processing

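No result on the decline of the summed genes between 16 and 44 hpf turned direction under any setting tried. For the main comparisons, 46 values under alternatives stayed within the counting interval (for counts of genes, within 1.5 times) and 22 did not. For 44 over 16 hpf, scaling by the median ratio of all genes gave 0.2069 in progenitors, 0.2123 in neurons, 0.1915 and 0.2098 in *mki67*-positive and *mki67*-negative progenitors and 0.3399 in non-neural cells. A total without mitochondrial, haemoglobin and ribosomal protein genes gave 0.1637 in progenitors, 0.1526 in *mki67*-positive progenitors and 0.2542 in non-neural cells. Neurons gave 0.111 with gates on all UMIs and 0.181 with gates 1 UMI higher. Progenitors gave 0.1572 by cluster in place of gates and 0.1617 without *npm1a*, *ncl* and *nop56*. Non-neural cells gave 0.2424 at 2000 drawn UMIs and 0.2734 as head mesenchyme-like cells alone, which came from different clusters at 16 and 44 hpf. Neurons over progenitors at 24 hpf gave 0.4083 as a mean over single cells, 0.6268 with gates on all UMIs and 0.3772 with gates 1 UMI higher. *mki67*-positive over *mki67*-negative progenitors at 24 hpf gave 0.9846 with median scaling, 0.9496 with gates on all UMIs, 0.9455 with gates 1 UMI higher and 0.9437 with the mitotic list in place of *mki67*, all on the other side of 1 from the reported 1.02. At 16 hpf the same ratio reversed, to 0.9863 with median scaling and 0.9813 with gates on all UMIs, as did *ncl* in neurons (44 over 24 hpf, 0.8 with gates on all UMIs). A minimum mean of 50 CPM left 23 members, 23 of them at least 2-fold lower (21.0% of all genes). A threshold of 1.5-fold called 41 of 41 members, where 37.8% of all genes passed.

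With median scaling 30 of 34 members in neurons and 36 of 41 in non-neural cells were at least 2-fold lower at 44 hpf, where 22.3% and 17.3% of all genes were. No paired analysis was possible because each stage was 1 library, and for the same reason no replicate could be left out. The search for promoter motifs was not run. The median depth of 2605 UMIs at 44 hpf limits members with few UMIs there, such as *NOP14*, *imp4* and *rcl1*. Stage cannot be told apart from library and sequencing run, and the part of free RNA was not tested.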

Other observations

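Among translation factors in progenitors, 2 subunits of the elongation factor that reloads eEF1A with GTP were higher at the later stages. *eef1b2* stood at 539, 1642 and 1988 CPM at 16, 24 and 44 hpf, and *eef1g* at 635, 1356 and 1586 CPM. These were 3.687 and 2.499 times as high at 44 as at 16 hpf. Of the 32 translation factor genes past the minimum, 6 were at least 2-fold lower, where 25.3% of all genes were. In non-neural cells the summed cytosolic ribosomal protein genes stood at 264660, 295181 and 312948 CPM, higher at each later stage, whereas the 42 ribosome biogenesis genes were lower at each.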
